A study of Homo sapiens with 8 samples.

Results

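The late-discovered miRNAs described here are the mature miRNAs numbered 1000 or above whose level, in counts-per-million (CPM) of the library total, averaged 5 or more over the 4 libraries of DLD1 or of HT29 cells. Of 1780 mature miRNAs counted in the series, 1075 had such a number and 111 of these met the rule. Another 8 entries (miR-1246, miR-3074-5p, miR-4454, miR-4485-3p, miR-4488, miR-4497, miR-7641 and miR-7974) were left out by name. The members were thus chosen by their level, and all levels below are a description with no test. The rule did not use the difference between the cultures. In DLD1 96 members reached 5 CPM and in HT29 63 did, with 48 reaching it in both lines, 48 in DLD1 only and 15 in HT29 only.

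MiRNAs are numbered in the order in which they were catalogued, so that a high number marks an entry found late, mostly by deep sequencing, and usually a scarce one. A primary transcript folds into a hairpin, which is cut by Drosha and Dicer into a duplex, and one arm of it (5p or 3p) is loaded into Argonaute. The seed, the bases from 2 to 8 at the 5′ end, pairs with target mRNAs, so that miRNAs with the same seed can have common targets. Some late entries differ from this scheme. A mirtron is a hairpin made of a whole spliced intron and bypasses Drosha, other hairpins lie inside snoRNA genes, and several lie on the strand opposite an older miRNA. Such an antisense entry has a mature sequence complementary to that of its older neighbour.

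DLD1 and HT29 are established human colorectal adenocarcinoma cell lines. Both were cultured for 6 days either as 2D monolayers or as multicellular spheroids (MCS) over agarose in round-bottom wells, in RPMI for DLD1 and DMEM for HT29. Monolayers were started from 35000 cells of DLD1 or 100000 of HT29, and spheroids from 7000 or 3500 cells per well. There were 8 libraries, 2 replicates for each line and culture, with no treatment and no engineered genotype. The small RNA kit was version 3 for DLD1 and version 2 for HT29, so that kit, medium and cell line cannot be told apart. Each line is a single line grown without other cell types, and bulk RNA cannot tell fewer cells with a miRNA from less of it per cell.

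The libraries held 10495634 to 26211524 miRNA counts. The 7 listed miRNAs of colorectal epithelium summed to 65005 CPM or more in every library, and the 9 counted of 10 miRNAs that mark other cell types summed to 51.5 to 136 CPM. In HT29 the latter sum was 51.5 to 59.0 CPM in 2D and 110 to 136 CPM in MCS, with miR-1-3p and miR-150-5p making up most of it, and its part in the results was not tested. In DLD1 that sum was 83.8 to 97.6 CPM in 2D and 93.5 to 107 CPM in MCS, most of it miR-126-3p (78.9 to 94.0 CPM). The epithelial sum of DLD1 was mostly miR-200b-3p and miR-200c-3p, while the epithelial miR-215-5p had 66.9 to 94.5 CPM there. Replicates were close in DLD1 and far apart in HT29: the median difference between the 2 libraries of a culture over the tested members was 0.25 (2D) and 0.27 (MCS) on the log2 scale in DLD1 and 0.53 and 0.86 in HT29.

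A RefSeq mature sequence (table for GRCh38.p14) was matched to 95 of the 111 members. These had 93 different seeds. Only 2 seeds were held by more than 1 member, UCCCACC by miR-1260a and miR-1260b and GGGCGUG by miR-1268a and miR-1268b. Both pairs differed by at most 2 substituted or end bases, so that reads could be assigned to either entry. The median GC content of the members was 59.1%, against 45.5% for 321 other miRNAs at 5 CPM or more, with a median length of 22 bases in both. The sequences of the members with a call in DLD1 follow, since the comparison of the cultures turns on them, with the seed in capitals. First come those lower in MCS.
miR-5100: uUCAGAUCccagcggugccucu
miR-3187-3p: uUGGCCAUggggcugcgcgg
miR-3529-3p: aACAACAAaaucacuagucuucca
miR-3619-5p: uCAGCAGGcaggcuggugcagc
miR-1305: uUUUCAACucuaaugggagaga
miR-1268a: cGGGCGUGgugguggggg
miR-4517: aAAUAUGAugaaacucacagcugag
miR-1268b: cGGGCGUGguggugggggug
miR-4521: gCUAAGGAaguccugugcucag
miR-1301-3p: uUGCAGCUgccugggagugacuuc
The members higher in MCS follow in the same notation. MiR-3607-5p and miR-3653-5p had no entry in the table.
miR-7704: cGGGGUCGgcggcgacgug
miR-4708-3p: aGCAAGGCggcaucucucugau
miR-4791: uGGAUAUGaugacugaaa
miR-5701: uUAUUGUCacguucugauu
miR-1260a: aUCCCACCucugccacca
miR-1260b: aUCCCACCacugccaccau
miR-1307-5p: uCGACCGGaccucgaccggcu
miR-3184-5p: uGAGGGGCcucagaccgagcuuuu
miR-3184-3p: aAAGUCUCgcucucugccccuca

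The antisense members are shown beside their older partners, now with the complementary stretch in capitals. For miR-3529-3p with miR-7-5p, and for miR-3184-3p with miR-423-5p, that stretch is the whole of both sequences (24 and 23 bases).
miR-3529-3p: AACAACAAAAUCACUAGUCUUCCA
miR-7-5p: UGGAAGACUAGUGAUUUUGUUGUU
miR-3184-3p: AAAGUCUCGCUCUCUGCCCCUCA
miR-423-5p: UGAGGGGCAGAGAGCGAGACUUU
miR-3184-5p: UGAGGGGCCUCAGACCGAGCUuuu
miR-423-3p: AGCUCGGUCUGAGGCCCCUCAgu
miR-3065-5p: uCAACAAAAUCACUGAUGCUGGA
miR-338-3p: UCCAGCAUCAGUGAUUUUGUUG

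One member outweighed all others in level. MiR-3529-3p, the antisense entry of miR-7, had 18940 and 19022 CPM in 2D and 4656 and 5190 CPM in MCS of DLD1. In HT29 it had 35079 and 40696 CPM in 2D and 31233 and 30799 CPM in MCS. It ranked 14 of all counted miRNAs by mean level in DLD1 and 6 in HT29, while the next member ranked 81 (miR-1307-3p) and 67 (miR-3613-5p). Its counts were 74.5% to 75.3% of all member counts in the DLD1 2D libraries, 44.8% and 52.7% in the MCS libraries and 86.4% to 96.3% in HT29. The 111 members together made up 2.51% (95% Wilson interval 2.51% to 2.52%) and 2.55% (2.55% to 2.56%) of the DLD1 2D libraries and 1.04% (1.04% to 1.04%) and 0.985% (0.981% to 0.989%) of the MCS libraries. The intervals cover counting error only. Without miR-3529-3p the share was 0.620% and 0.652% in 2D and 0.574% and 0.466% in MCS, so that most of the fall of the summed share lay in that single entry.

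The rest of the members were scarce. In DLD1 94 of the 111 had a mean below 100 CPM and in HT29 102, and the median level was 16.2 CPM in DLD1 and 6.47 CPM in HT29. After miR-3529-3p the most abundant members of DLD1 were miR-1307-3p (719 ± 82.2 CPM, SD over 4 libraries of both cultures), miR-1247-5p (430 ± 50.8), miR-3613-5p (387 ± 115), miR-1180-3p (383 ± 136), miR-1301-3p (240 ± 112), miR-1260b (228 ± 49.1), miR-3615 (225 ± 14.2), miR-3184-3p (196 ± 39.3) and miR-3184-5p (187 ± 33.2). Neighbours in this order lay within their spread from miR-1247-5p to miR-1180-3p and from miR-1301-3p onwards. In HT29 the order was miR-3613-5p (1053 ± 895 CPM), miR-1307-3p (252 ± 138), miR-1260b (206 ± 158), miR-4521 (171 ± 134), miR-1260a (132 ± 92.7), miR-3184-3p (122 ± 27.5), miR-4286 (116 ± 77.3), miR-3184-5p (103 ± 68.0) and miR-1307-5p (90.8 ± 51.3). Among these HT29 members the spread was as wide as the differences between neighbours.

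**Figure D1:**
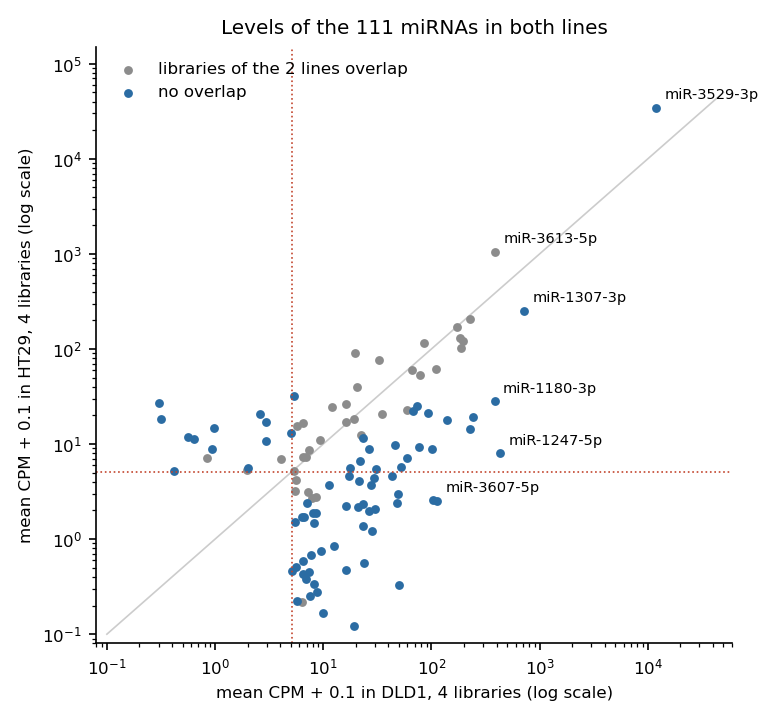
Mean level of each of the 111 members over the 4 DLD1 libraries (horizontal axis) and the 4 HT29 libraries (vertical axis), in CPM plus 0.1 on log axes; dotted lines mark the 5 CPM rule, the diagonal marks equal levels, and blue points are members whose libraries of one line all exceeded those of the other. MiR-3529-3p lies far above all other members in both lines, and miR-1247-5p, miR-1180-3p and miR-3607-5p lie far to the DLD1 side.

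Levels differed widely between the lines, which differ in kit as well. For 61 members all 4 DLD1 libraries lay above all 4 HT29 libraries, for 14 the HT29 libraries lay above, and for 36 they overlapped. The same counts were not made over all miRNAs. Members could enter by the level of 1 line alone (48 in DLD1 only and 15 in HT29 only), so that these counts partly follow from the rule. MiR-1247-5p had 372, 483, 460 and 403 CPM in DLD1 (2D, then MCS) and 15.9, 8.16, 2.05 and 5.30 CPM in HT29. MiR-1180-3p, from an intron of B9D1, had a mean 13.6-fold higher in DLD1 than in HT29. MiR-3677-3p had 14.4 and 58.0 CPM in 2D and 11.1 and 23.0 CPM in MCS of HT29, against at most 0.471 CPM in any DLD1 library. It was the member with the largest ratio towards HT29. MiR-3144-3p behaved alike, with 8.77 to 27.5 CPM in HT29 and at most 0.759 CPM in DLD1. At the threshold itself, miR-3131 (5.07 CPM in HT29), miR-6747-3p (5.08 in DLD1) and miR-4461 (5.21 in DLD1) were just inside, and miR-4470 (4.82, HT29), miR-3133 (4.73, DLD1) and miR-3116 (4.62, HT29) just outside.

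Next, the 6 members opposite an older miRNA were compared with that partner, because whether reads were assigned by strand is not given in the sources used here. The entry miR-3184-3p and its exact complement miR-423-5p had nearly equal counts in every library, 2563 and 2393 in the first DLD1 2D library and 1151 and 1165 in the first HT29 2D library. The share of miR-3184-3p in the counts of both was 49.6% to 51.7% in DLD1 and 49.5% to 50.7% in HT29, with 95% Wilson intervals reaching at most 2.04 points to either side. MiR-3529-3p and miR-7-5p are complementary over their full length too, but their counts were not equal. MiR-3529-3p took 91.0% to 91.7% of the counts of both in DLD1 and 76.6% to 83.2% in HT29. The older entry miR-7-5p, which is known to target the mRNA of the EGF receptor, thus held the smaller part of the counts in every library. The mature sequence of miR-3529-3p occurs at 3 places in GRCh37, chr9:86584726-86584749 on the plus strand and chr15:89155087-89155110 and chr19:4770712-4770735 on the minus strand, which are the loci of the miR-7 genes read from the other strand.

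For the remaining pairs one entry prevailed as well. MiR-3184-5p held 6.01% to 8.49% of the counts shared with miR-423-3p in DLD1 and 11.3% to 20.4% in HT29. Against miR-338-3p, miR-3065-5p took 99.0% to 100% in DLD1 and 76.7% to 92.9% in HT29. MiR-3065-3p took 74.9% to 93.8% of the counts shared with miR-338-5p in DLD1 but 25.7% to 40.4% in HT29. This was the only pair of the 6 in which the larger entry was a different one in each line. In DLD1 its share was 75.7% and 74.9% in 2D and 93.8% and 90.1% in MCS. MiR-3074-3p, opposite the hairpin of miR-24, took 85.5% to 95.8% of the counts shared with miR-24-1-5p in DLD1 and 68.9% to 81.0% in HT29. Which strand the reads of these pairs came from cannot be told from the counts.

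**Figure D2:**
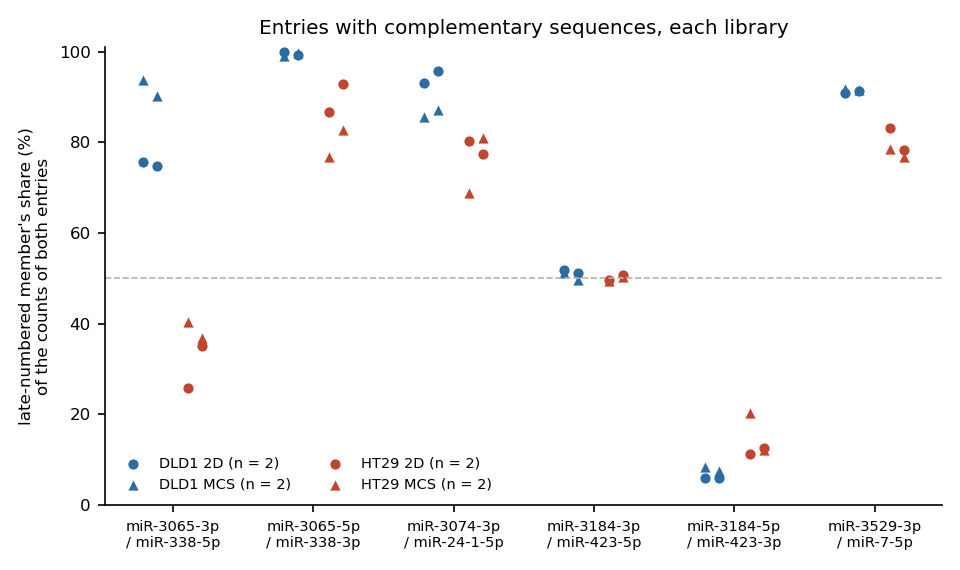
Share of the late-numbered member, in percent, in the summed counts of the member and the older miRNA complementary to it, for the 6 pairs named under the axis; each point is a library (circles 2D, triangles MCS, blue DLD1, red HT29), and the dashed line marks 50%. All 8 libraries lie at 49.5% to 51.7% for miR-3184-3p and miR-423-5p, while the other pairs are unequal.

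The comparison of MCS with 2D asked which members respond to growth in spheroids. In DLD1, 62 members had a mean of at least 10 CPM and were tested. Of these 21 were called, that is, changed 1.5-fold or more with an adjusted p under 0.05 in edgeR's quasi-likelihood test (Benjamini-Hochberg adjusted), and 41 were not. Over all 346 miRNAs tested in DLD1 143 were called, a background of 41.3%. Up-regulated in MCS were 11 members (17.7% of 62), where the background was 29.8%, and down-regulated were 10 (16.1%), where the background was 11.6%. For all 21 the MCS libraries both lay on one side of both 2D libraries. Such a separation upwards was found for 20 of the 62 members (background 45.4%) and downwards for 26 (background 25.4%). The median log2 fold change was -0.09 over the tested members and 0.23 over all tested miRNAs, so that each value below stands against a general shift upwards under this scaling. For a single miRNA an exact permutation test of 2 libraries against 2 cannot give a p below 0.333, and the calls rest on the spread shared across all miRNAs.

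The split between rises and falls depended on the scaling. With TMM factors 7 members were higher and 16 lower, with library totals alone 6 and 22, with the upper quartile over tested miRNAs 4 and 26, and with DESeq2 7 and 18. In the order given, higher calls were 30.4%, 21.4%, 13.3% and 28.0% of the calls, against 52.4% with the factors used throughout. These scalings moved the median of all tested miRNAs by -0.20, -0.37, -0.45 and -0.24 (log2), and RLE factors, which gave 11 and 12 calls, by -0.12. All 21 called members had the same sign under every alternative, all 10 falls were called under each of 5 other scalings, and so were 4 of the 11 rises (miR-7704, miR-4708-3p, miR-4791 and miR-3607-5p). Leaving out replicate 2 of 2D left 5 rises, and leaving out replicate 1 of MCS left 7. When the spread was estimated from all 8 libraries together, 0 rises and 2 falls (miR-5100 and miR-3187-3p) were called.

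Among members of at least 10 CPM the largest fall was that of miR-5100, whose hairpin lies outside annotated genes at chr10:43493011-43493129 (GRCh37, plus strand). It had 57.0 and 69.8 normalized CPM in 2D and 14.7 and 15.4 in MCS. Both spheroid libraries lay at less than 16 normalized CPM, with a log2 fold change of -2.07 (SE 0.33, edgeR adjusted p = 4.20e-09). MiR-3187-3p, outside annotated genes at chr19:813584-813653 (plus strand), had 158 and 132 normalized CPM in 2D and 37.6 and 47.8 in MCS. The groups were well apart, and it fell by 1.76 on the log2 scale (SE 0.27, edgeR adjusted p = 2.26e-09). MiR-3529-3p fell from 17078 and 16294 to 4496 and 6959 normalized CPM, a log2 fold change of -1.54 (SE 0.27, edgeR adjusted p = 2.54e-07). Its complement miR-7-5p fell by 1.64 on the same scale (SE 0.23, edgeR adjusted p = 9.73e-11), so that both entries of this pair moved together. As the use of strand is not given for these full complements, the 2 falls may not be separate observations.

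MiR-3619-5p lies in an intron of MIRLET7BHG, the host transcript of let-7 miRNAs, at chr22:46486924-46487006 (plus strand), and carries the same seed as miR-214-3p, which had 0 counts in DLD1. It had 44.8 and 34.0 normalized CPM in 2D and 17.7 and 14.3 in MCS, a log2 fold change of -1.30 (SE 0.33, edgeR adjusted p = 0.000507). MiR-1305, in an intron of TENM3 (chr4:183090446-183090531, plus strand), was low throughout, with 15.4 and 17.3 normalized CPM in 2D and 6.20 and 7.93 in MCS, and fell by 1.22 (log2, SE 0.36, edgeR adjusted p = 0.00252). Before normalization miR-1305 had 6.42 and 5.91 CPM in MCS. It reached the 10 CPM minimum only through 2D, so that its mean had to be lower in MCS. The near-identical miR-1268a and miR-1268b fell by 1.18 (SE 0.30, edgeR adjusted p = 0.000478) and 0.996 (SE 0.29, edgeR adjusted p = 0.00244). Their counts were within a ratio of 0.750 to 0.912 of each other in all DLD1 libraries, and the shared sequence occurs at 34 places in GRCh37 for miR-1268a, so that the falls may not be separate observations. MiR-4517, over an exon of at least 1 transcript of NFATC2IP (chr16:28969904-28969982, plus strand), fell from 29.8 and 25.1 to 11.9 and 14.0 normalized CPM. The fitted log2 change was -1.09 (SE 0.34, edgeR adjusted p = 0.00534).

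The smallest called falls belonged to 2 of the more abundant members. MiR-4521, whose mature sequence lies outside annotated genes at chr17:8090266-8090287 (plus strand), had 234 and 192 normalized CPM in 2D and 117 and 119 in MCS, a log2 fold change of -0.85 (SE 0.25, edgeR adjusted p = 0.00244). MiR-1301-3p, in an intron of DNMT3A, which encodes a de novo DNA methyltransferase (chr2:25551509-25551590, minus strand), had 255 and 325 normalized CPM in 2D and 155 and 186 in MCS, a log2 fold change of -0.77 (SE 0.24, edgeR adjusted p = 0.00543). In neither case did the groups overlap.

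Among the rises at this minimum, miR-7704 had the largest. Its mature sequence lies over an exon of HOXD1, a homeobox gene, at chr2:177053571-177053589 (plus strand). It had 7.30 and 11.0 normalized CPM in 2D and 36.2 and 34.1 in MCS, a log2 fold change of 1.93 (SE 0.35, edgeR adjusted p = 3.83e-07). MiR-4708-3p, outside annotated genes at chr14:65801835-65801901 (minus strand), rose from 6.61 and 9.28 to 21.4 and 32.8 normalized CPM, a log2 fold change of 1.76 (SE 0.35, edgeR adjusted p = 5.99e-06). Its 2D libraries (7.34 and 10.8 CPM before normalization) averaged under the 10 CPM minimum. It was thus tested only through MCS, where its mean had to be higher. MiR-4791 (chr3:19356340-19356423, minus strand, outside annotated genes) was the most abundant of the 3, with 40.5 and 38.8 normalized CPM in 2D and 117 and 139 in MCS. It rose by 1.69 on the log2 scale (SE 0.28, edgeR adjusted p = 1.90e-08).

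GENCODE types the gene named MIR3607 as a snoRNA. MiR-3607-5p had 82.6 and 60.9 normalized CPM in 2D and 147 and 185 in MCS, a log2 fold change of 1.21 (SE 0.26, edgeR adjusted p = 1.63e-05). MiR-3653-5p was less abundant and more variable, with 18.6 and 10.6 normalized CPM in 2D and 28.9 and 40.2 in MCS, and a log2 fold change of 1.25 (SE 0.34, edgeR adjusted p = 0.00101). MiR-5701, present at 2 places of chromosome 15 outside annotated genes (the first hairpin is at chr15:21145581-21145662, plus strand), rose from 36.0 and 28.1 to 74.7 and 58.5 normalized CPM. The log2 fold change was 1.06 (SE 0.30, edgeR adjusted p = 0.00176), and this rise was called under 3 of the 5 other scalings.

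MiR-1260a and miR-1260b share a seed and most of their sequence. MiR-1260a (first hairpin chr14:77732561-77732633, plus strand, outside annotated genes) had 118 and 136 normalized CPM in 2D and 248 and 253 in MCS, a log2 fold change of 0.98 (SE 0.25, edgeR adjusted p = 0.000385). MiR-1260b (chr11:96074602-96074690, plus strand, outside annotated genes) had 165 and 182 in 2D and 287 and 292 in MCS, a log2 fold change of 0.74 (SE 0.24, edgeR adjusted p = 0.00712). The ratio of miR-1260a to miR-1260b counts was 0.716 and 0.749 in 2D and 0.864 and 0.867 in MCS. In this ratio both spheroid libraries lay above the monolayer libraries.

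Both arms of miR-3184, whose mature sequences lie at chr17:28444146-28444169 and chr17:28444113-28444135 on the minus strand, opposite MIR423, rose by similar amounts. MiR-3184-5p had 144 and 140 normalized CPM in 2D and 223 and 258 in MCS, a log2 fold change of 0.76 (SE 0.25, edgeR adjusted p = 0.00630). MiR-3184-3p had 146 and 152 in 2D and 243 and 259 in MCS, a log2 fold change of 0.75 (SE 0.24, edgeR adjusted p = 0.00708). The complement of the 3p arm, miR-423-5p, rose by 0.81 (SE 0.25, edgeR adjusted p = 0.00329), whereas miR-423-3p, the complement of the 5p arm, had a log2 fold change of 0.34 (SE 0.24, edgeR adjusted p = 0.242) and was not called. With the use of strand not given, the rises of miR-3184-3p and miR-423-5p may not be separate observations. MiR-1307-5p, the scarce arm of a hairpin over an exon of ATP5MK, a subunit of mitochondrial ATP synthase (chr10:105154010-105154158, minus strand), rose from 14.9 and 13.1 to 25.0 and 26.4 normalized CPM (log2 fold change 0.88, SE 0.34, edgeR adjusted p = 0.0270). The rises of miR-1260b, of miR-1307-5p and of both arms of miR-3184 were called under only 1 of the 5 other scalings.

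**Figure D3:**
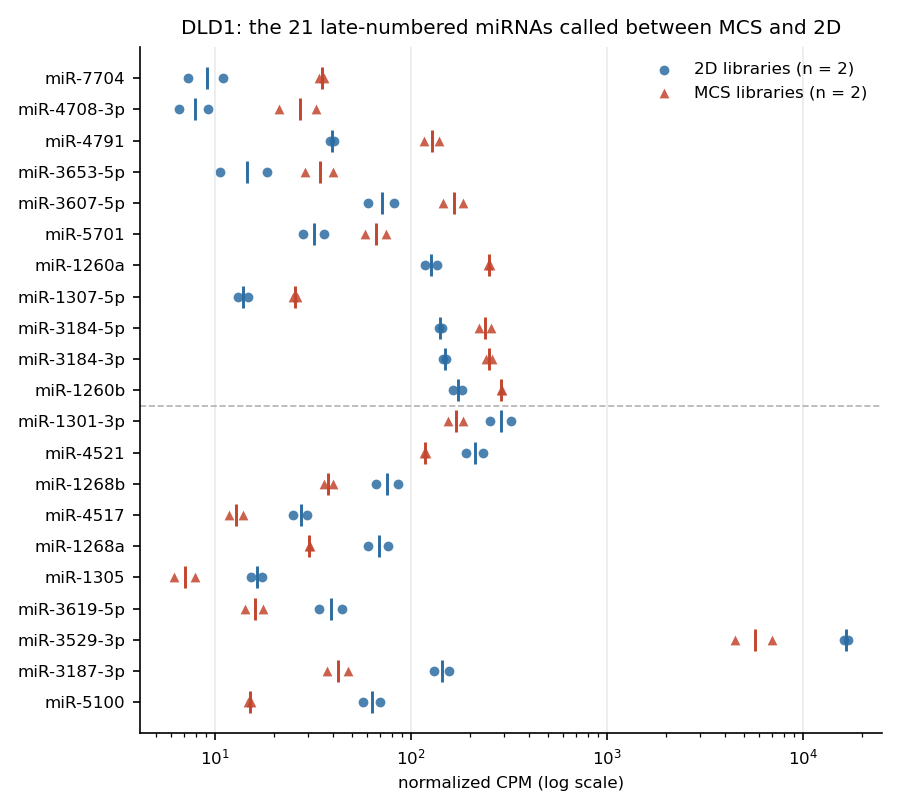
Normalized CPM (log axis) of the 21 members called in DLD1; circles are the 2 libraries of 2D, triangles the 2 libraries of MCS, and vertical ticks the group means. Members above the dashed line were higher and those below it lower in MCS, and in each row the circles and triangles do not overlap.

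Grouped by where they lie in GRCh37, the tested members differed in their counts of calls. A position was found for 91 of the 111 members, 78 of them by an annotated hairpin and 13 by a single match of the mature sequence. Of the 14 tested members in introns of protein-coding genes, 0 were called higher and 2 lower, and their median log2 fold change was -0.38. Here 0 members had both MCS libraries above both 2D libraries and 10 had them below. Of those 10, miR-1305 and miR-3679-5p passed the 10 CPM minimum only through 2D, so that their means had to be lower in MCS. Of the 24 placed outside protein-coding genes, 7 were called higher and 5 lower, with a median of 0.33. MiR-4708-3p, among those 7, was tested only through MCS, as given above. Among the 14 over an exon of a protein-coding gene 2 were called higher and 1 lower, with a median of -0.08. These counts and medians stand beside 29.8% and 11.6% called, 45.4% and 25.4% separated upwards and downwards and a median of 0.23 for all tested miRNAs, and no list was tested.

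Among the intronic members, miR-1180-3p (log2 fold change -0.48), miR-1226-3p (-0.63), miR-3158-3p (-0.79), miR-3679-5p (-0.55) and miR-4677-3p (-0.42) had lower values in MCS with no overlap of the groups, without being called. For miR-3679-5p (10.6 and 5.28 CPM in MCS before normalization) the lower mean followed from the 10 CPM minimum, which it passed only through 2D. MiR-1226, the one hairpin among the members whose ends coincide with those of an intron, in DHX30 (chr3:47891045-47891119, plus strand), had both arms counted. MiR-1226-3p had 20.5 and 24.9 CPM in 2D and 13.7 and 9.33 CPM in MCS, and miR-1226-5p had 7.78 and 9.77 CPM in 2D and 6.48 and 3.47 CPM in MCS. MiR-1291, whose sequence lies in the snoRNA gene SNORA34 in KANSL2, had 55.2 and 10.6 CPM in 2D and 32.2 and 11.2 CPM in MCS. In both cultures replicate 1 was far above replicate 2, and the groups overlapped.

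Another 34 members had a mean between 5 and 10 CPM in DLD1 and were tested only when the minimum was lowered to 5 CPM. Of these 5 were then called higher in MCS and 1 lower, where 15.5% and 12.7% of all 71 miRNAs in this range were called higher and lower. For all 5 replicate 1 of MCS held by far the highest value, and all 5 lay under 5 CPM in both 2D libraries. They reached the minimum only through MCS, so that their mean had to be higher there. MiR-3656 had 0.190 and 0.550 CPM in 2D and 19.98 and 4.30 CPM in MCS. For miR-4516 the values were 0.443 and 0.785 CPM in 2D and 16.7 and 4.50 CPM in MCS. MiR-6087 had 1.64 and 1.06 CPM in 2D and 21.8 and 5.03 CPM in MCS. MiR-3607-3p had 2.85 and 3.30 CPM in 2D and 14.3 and 4.35 CPM in MCS. MiR-4284, whose sequence occurs exactly in a mitochondrial tRNA gene and at 2 places of the nuclear genome, had 3.79 and 4.79 CPM in 2D and 17.0 and 3.62 CPM in MCS. The higher level of miR-4284 in MCS rested on replicate 1, since replicate 2 lay below both 2D libraries. The member called lower was miR-3189-3p, with 12.01 and 16.3 CPM in 2D and 1.72 and 2.15 CPM in MCS, where the replicates were close. It reached the minimum only through 2D, so that its mean had to be lower in MCS.

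In HT29, 43 members were tested. None was called by edgeR's quasi-likelihood test (0 of 43), and 0 had an unadjusted p under 0.05 with a fold change of at least 1.5. Over all 301 miRNAs tested in HT29 the background was 0.0% called and 3.99% at the unadjusted threshold. DESeq2 and edgeR's exact test also called 0 members, but the missing calls depended on the design: other alternatives called 2 and 5 members, among them miR-1301-3p, miR-3677-3p, miR-5094 and miR-1307-5p. In normalized CPM, both MCS libraries lay above both 2D libraries in 4 members (background 17.9%) and below them in 5 (background 10.6%).

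After scaling, the member with the clearest separation in HT29 was miR-3677-3p, with 27.5 and 34.9 normalized CPM in 2D and 14.9 and 14.8 in MCS. In CPM of the library total it had 14.4 and 58.0 in 2D and 11.1 and 23.0 in MCS, which overlapped. Its log2 fold change was -1.07 (SE 0.43, edgeR adjusted p = 0.975). MiR-1301-3p had 21.5 and 24.6 in 2D and 6.28 and 12.5 in MCS, a log2 fold change of -1.29 (SE 0.52, edgeR adjusted p = 0.975). Of the 9 members called in DLD1 and tested in HT29, it was the one whose HT29 groups did not overlap in normalized CPM. The other members that lay lower in both MCS libraries had log2 fold changes of -0.54 (miR-1303), -0.48 (miR-1285-3p) and -0.40 (miR-2467-5p), and those that lay higher had 0.39 (miR-1307-3p), 0.39 (miR-3182), 0.32 (miR-3065-3p) and 0.30 (miR-3158-3p). MiR-3182 (5.81 and 11.4 CPM in 2D before normalization) passed the 10 CPM minimum only through MCS, so that its mean CPM had to be higher there. MiR-2467-5p (8.56 and 11.1 CPM in MCS) passed it only through 2D, so that its mean CPM had to be lower in MCS. In CPM of the library total the groups overlapped for each of these members, and for miR-3677-3p and miR-1301-3p too. Some fitted changes larger than that of miR-1303 came with groups that overlapped after scaling. MiR-5094 had 71.5 and 13.8 normalized CPM in 2D and 16.3 and 6.55 in MCS, and miR-1307-5p had 31.4 and 70.1 in 2D and 177 and 63.98 in MCS. In CPM of the library total miR-5094 had 37.3 and 22.9 in 2D and 12.1 and 10.2 in MCS, without overlap. MiR-3529-3p had 67158 and 24513 normalized CPM in 2D and 42128 and 19801 in MCS, so that after this scaling the replicates differed more than the cultures. In CPM of the library total, without the factors, it had 35079 and 40696 in 2D and 31233 and 30799 in MCS. On that scale both MCS libraries lay below both 2D libraries.

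The spread between replicates was wider in HT29. For 18 of the 43 tested members the replicates of at least 1 culture differed by more than 2-fold, against 2 of 62 in DLD1. The upper quartile factors were 0.522 and 1.66 in 2D and 0.741 and 1.56 in MCS of HT29, and 0.746 to 1.17 in DLD1. The source of this difference between replicates was not tested. Some members below the 10 CPM minimum in HT29 also had groups that did not overlap, and are named after their values were seen. MiR-3131 had 1.33 and 1.79 CPM in 2D and 9.40 and 7.74 CPM in MCS. It met the 5 CPM rule only through MCS of HT29, so that its mean had to be higher there. The share of all miRNAs below the 10 CPM minimum with such groups is not given here. MiR-1247-5p, with the values given above, was lower in both MCS libraries. MiR-3607-5p had 2 and 19 counts in 2D (0.191 and 0.725 CPM) and 61 and 54 counts in MCS (5.68 and 3.14 CPM) of HT29, with both spheroid libraries above both monolayer libraries, as in DLD1.

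**Figure D4:**
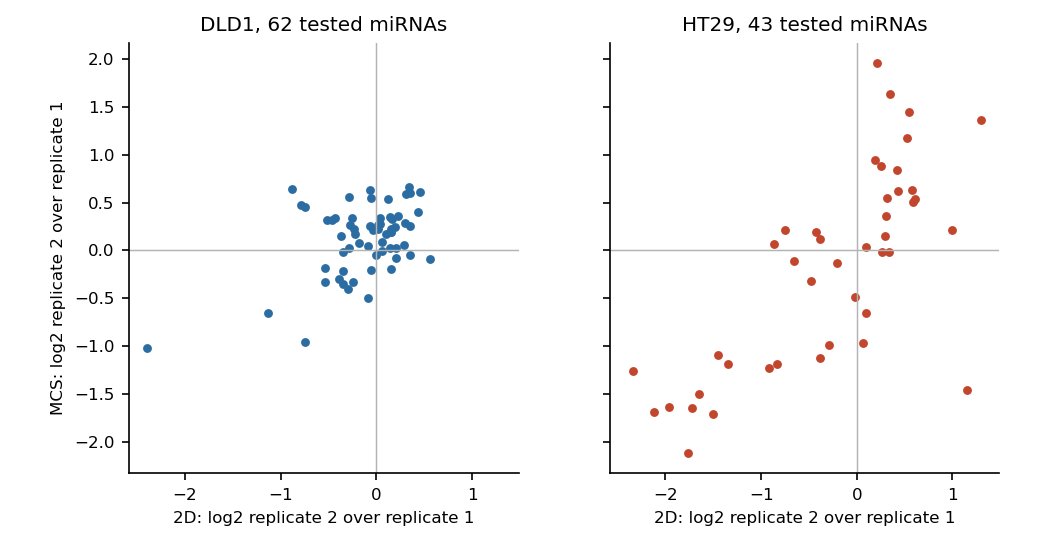
Log2 ratio of replicate 2 to replicate 1 (normalized CPM plus 0.5) in 2D (horizontal axis) and in MCS (vertical axis) for the members tested in DLD1 (left, 62 points) and HT29 (right, 43 points). The DLD1 points crowd around 0, while the HT29 points spread over a wide range in both cultures.

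Responses in the 2 lines were compared for the 30 members tested in both. The fitted change had the same direction in 27 of the 30 (90%), and in 165 of all 250 miRNAs tested in both lines (66%). Of the 21 members called in DLD1, 9 were tested in HT29, and all 9 had the same direction there. Only miR-1301-3p and miR-1307-5p of these had an HT29 change larger than its standard error, so that the direction of the others is not resolved. The 9 include miR-1260a with miR-1260b and both arms of miR-3184, which may not be separate observations. The difference between the responses was tested as an interaction over the 8 libraries. By edgeR's quasi-likelihood test 0 of 30 members differed at an adjusted p under 0.05 (background 0.0%), and 0 at an unadjusted p under 0.05 (background 9.2%). DESeq2 called 1 member, miR-3158-3p. For this member, from an intron of DPCD (first hairpin chr10:103361174-103361254, plus strand), the log2 fold change was -0.79 in DLD1 and 0.30 in HT29, a difference of 1.05 (SE 0.45, edgeR adjusted p = 0.526, DESeq2 adjusted p = 0.0464). Its mature sequence also occurs on the minus strand, at chr10:103361184-103361205. For miR-4791 the values were 1.69 and 0.07 (difference -1.62, SE 1.04, edgeR adjusted p = 0.708), and for miR-3529-3p they were -1.54 and -0.57 (difference 0.98, SE 0.82, edgeR adjusted p = 0.780). With standard errors of this size a missing call does not show equal responses.

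**Figure D5:**
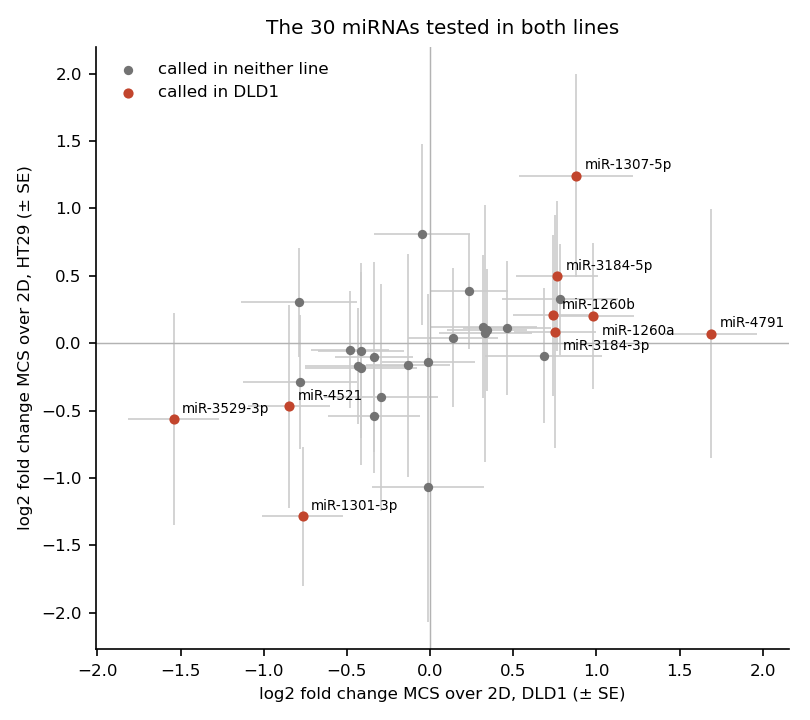
Log2 fold change of MCS over 2D in DLD1 (horizontal axis) and HT29 (vertical axis) for the 30 members tested in both lines, with standard errors as bars; red points were called in DLD1. The 9 red points lie in the same direction in both lines, and the vertical bars (HT29) are longer than the horizontal ones. Among the red points, all vertical bars except those of miR-1301-3p and miR-1307-5p cross 0.

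Finally, both arms were members for 11 hairpins, which allowed the balance of the arms to be read in each library. In miR-3613, in an intron of DLEU2 (chr13:50570551-50570637, minus strand), the 5p arm held 98.7% to 99.7% of the counts of both arms in DLD1 and 97.4% to 99.3% in HT29. In miR-1247, over an exon of the non-coding gene DIO3OS, the 5p arm held 79.5% to 82.5% in DLD1 and 45.8% to 88.4% in HT29. In DLD1 these 2 hairpins varied little between libraries, while the lowest and highest values lay further apart for miR-3619 (68.8% and 81.0%), miR-1306 (65.6% and 76.4%) and miR-3065 (60.4% and 70.9%).

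In some hairpins the DLD1 cultures did not overlap, as described here with no test. The 5p share of miR-3619 was 81.0% and 79.2% in 2D against 68.8% and 73.2% in MCS, with 95% Wilson intervals of up to 5.30 points to either side. For miR-3065 it was 70.9% and 69.3% against 66.1% and 60.4% (up to 3.57 points). The gaps were smaller for miR-1306, with 71.3% and 76.4% against 71.1% and 65.6% (up to 3.33 points). For miR-1247 the shares were 80.9% and 82.5% against 79.5% and 80.1% (up to 0.919 points). In each of these hairpins the intervals of the nearest 2D and MCS libraries overlapped. MiR-1307 went the other way. In the DLD1 2D libraries its 5p arm held 2.32% and 1.85% of the counts, and in the MCS libraries 3.33% and 3.08%, where 95% Wilson intervals reached at most 0.310 points to either side. The HT29 values were higher, 15.3% and 25.2% (2D) and 41.4% and 20.5% (MCS), with intervals of at most 2.23 points. Both DLD1 spheroid libraries lay above both monolayer libraries, whereas in HT29 they overlapped, and every HT29 library lay above every DLD1 library. In miR-3184 the 5p arm held 47.9% to 49.97% in DLD1, but 18.1% and 59.4% in 2D and 29.3% and 60.2% in MCS of HT29, so that the balance there differed by replicate rather than by culture. Since the strand of these reads cannot be told, this share may not be that of the miR-3184 hairpin itself. For miR-3607 the 5p arm held 91.4% to 97.0% in DLD1. In HT29 its share was 42.2% or less in 2D and 74.4% and 54.0% in MCS, with only 2 and 8 counts of the arms in the first 2D library and Wilson intervals reaching up to 31.0 points.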

How the data were processed

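Small RNA libraries of DLD1 and HT29 cells in 2D or MCS (2 replicates each) were grouped by the labels. The authors trimmed the reads, aligned them to GRCh37, identified miRNAs by aligning mapped reads against miRBase, and deposited raw counts for each mature miRNA. The submitters' processing notes name cutadapt 1.11 and Bowtie2 2.1.0. Use of strand and the counting of reads that match several entries are not given in the sources used here. Single-library and series tables were compared over 12572 values, and 0 differed. In replicate 2 of HT29 2D, 15 entries naming no miRNA held 2590 counts (0.00988% of the library). These entries had no counts elsewhere and were left out.

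Counts were analysed with edgeR 4.0.16 in R 4.3.3. Each line was fitted apart by the quasi-likelihood test, for miRNAs averaging 10 CPM or more in it. Upper quartile factors came from every miRNA counted in that line. Calls required a 1.5-fold change and an adjusted p under 0.05 (Benjamini-Hochberg over the miRNAs tested). For the interaction between the lines the adjusted p alone decided. Normalized CPM are counts scaled by the library total times its factor. The fits were tested on simulated data. Libraries held 10495634 to 26211524 counts. P-values measure the spread between these libraries only, part of which may be technical. Alternatives were TMM and RLE factors, library totals, the upper quartile over tested miRNAs, the exact test, DESeq2 1.42.0, other filters on low counts, a replicate block, all libraries in 1 fit, the table without antisense members, other call rules and each library left out.

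RefSeq mature sequences (GRCh38.p14 table) were searched in GRCh37, and hairpins and host genes were taken from GENCODE lifted to GRCh37. Antisense members are complementary to another counted mature miRNA over 16 or more bases. Besides the 6 opposite an older miRNA, miR-3158-3p and miR-4708-3p met this rule, each with the other arm of its own number. The genes named are the 10 most abundant members of each line, the calls in DLD1, HT29 members whose groups do not overlap (up to 6 each way), antisense members, members in small RNA genes or at intron ends, hairpins with both arms, near-identical members, members at the 5 CPM threshold and those with the smallest interaction p-values. MiR-5094, miR-3189-3p, miR-4516, miR-3656, miR-6087, miR-3144-3p, miR-3131 and the uncalled intronic members were named after their values were seen. The members and lists were chosen with earlier results of these data known.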

Additional observations from a re-analysis of the deposited data

How the results depend on the processing

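All 21 DLD1 calls kept their sign under every alternative run. The number of members called higher in DLD1 (11) became 7 with TMM factors, 6 with library totals, 4 with the upper quartile over tested miRNAs, 7 with DESeq2 and 0 with all libraries in 1 fit, and 5 to 8 with a library left out. The number called lower (10) became 16, 22, 26, 18 and 2 under the same 5 settings, and 11 to 13 with a library left out. The HT29 count (0) became 2 without a filter (miR-3607-5p higher, miR-1247-5p lower). The replicate numbers share only a number in the labels. With them as a replicate block, 5 members were called in HT29 (miR-1307-5p higher, and miR-1301-3p, miR-3677-3p, miR-3940-3p and miR-5094 lower), and 3 members differed between the lines (miR-3158-3p, miR-3940-3p and miR-4791). In HT29 miR-3940-3p had 16.8 and 15.1 CPM in 2D and 12.1 and 5.24 CPM in MCS. It passed the 10 CPM minimum there only through 2D, so that its mean had to be lower in MCS. The share of all miRNAs called with this block is not given here. Deviations of same-numbered libraries correlated at 0.32 in DLD1 and 0.79 in HT29 across the tested miRNAs, which are not independent. DESeq2 gave 1 member that differed between the lines, where edgeR gave 0. The cause was not tested. Log2 fold changes that were not called turned sign as follows. In DLD1, miR-3065-5p gave -0.0564 with library totals and -0.13 with the upper quartile over tested miRNAs, and miR-3074-3p ranged from -0.41 to 0.10 with a library left out. In HT29, miR-3065-5p gave -0.16 with the upper quartile over tested miRNAs and -0.00916 with DESeq2, and miR-3184-3p gave -0.0700 with the former. With an HT29 library left out the ranges were -0.0121 to 0.76 for miR-3182, -0.26 to 0.38 for miR-3065-5p, -0.30 to 1.39 for miR-3074-3p, -0.996 to 1.18 for miR-3184-3p and -1.24 to 0.33 for miR-3529-3p. Of the named log2 fold changes, 465 alternative values kept direction and call, 39 lost the call, 4 gained one and 13 turned sign. Whether depth limits the calls in HT29 was not tested.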

Other observations

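Of the members, 12 share their seed with a counted miRNA that is no member. The older entry with the seed CAGCAGG of miR-3619-5p is miR-214-3p, which was at 0 counts in DLD1. MiR-3184-5p and miR-423-5p share the seed GAGGGGC although they come from opposite strands, and had mean levels of 187 and 190 CPM in DLD1. In each of the other cases the member had the higher mean level in DLD1. For the seed UGGGGGA, miR-1275 had a mean of 76.6 CPM and miR-4665-5p 1.35 CPM, and for the seed GGCCCUG, miR-1291 had 27.3 CPM and miR-6775-3p 0.944 CPM.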
